A study of Homo sapiens with 27 samples.

Results

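Homologous recombination and Fanconi repair genes are described here in 3 human cancer cell lines given SGX-523, a selective inhibitor of the MET receptor tyrosine kinase. The list holds 42 genes, of which 38 had a probe set annotated to that gene alone. BRCA2, RBBP8, FANCA and FANCD2 are not analysed here. Each gene was read from its brightest probe set, by the mean over the 27 arrays. On at least 3 arrays that probe set was as bright as the array median for 36 of the 38, so 36 genes entered a fit over 12325 genes. BRIP1 and PMS2 stayed under that limit.

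All 3 lines carry active MET. The MET-dependent lines were EBC-1, a lung cancer line of the non-small cell kind, and the gastric cancer line MKN-45. HCC827, a non-small cell lung cancer line, served as the negative control because its MET is active but the cells do not depend on it. Each line was cultured with SGX-523 at 1 uM for 24 h or for 48 h, or with the solvent DMSO, in 3 biological replicates, which makes 9 groups of 3 arrays. No culture time is labelled for DMSO, and both times of a line are set against the same 3 DMSO arrays. Nothing says whether the replicates were separate cultures on separate days, so the p-values measure the spread between these arrays. Each line is a single established line, and a bulk array cannot tell fewer cells in a cell-cycle phase from less RNA per cell.

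Values are the deposited log2 expression values, and a change is the mean of the SGX-523 arrays minus the mean of the DMSO arrays of the same line. A change of 1 unit is 2-fold. A gene was called where limma's adjusted p, over all 12325 genes, was under 0.05. The median standard error of a change was 0.11, for the repair genes as for all genes. One array stood apart before any comparison. The third HCC827 replicate at 24 h of SGX-523 had a residual SD of 0.367 from its group mean, against at most 0.115 for any array outside that group. Its correlation with the other HCC827 arrays was at most 0.9667, whereas arrays of one group elsewhere correlated at 0.9958 or more. Calls against DMSO in EBC-1 and MKN-45 that turn on it are given with and without it. The array medians were 5.71 to 5.73 in HCC827 and 5.02 to 5.14 in the other lines, so levels in HCC827 are not compared with theirs. NAPSA, a lung adenocarcinoma marker, ran from 9.33 to 10.02 in HCC827. CDH17, an intestinal cadherin, was 11.28 to 12.45 in EBC-1. The epithelial cadherin CDH1 stayed at 2.67 to 4.58 there, under the array median on all 9 arrays. Of 8 gastric and intestinal markers measured, CDH17 and LGALS4 were above it on all 9 EBC-1 arrays and the other 6 under it. Of 6 lung markers, SFTA3 and SCGB1A1 were under it on all 9 EBC-1 arrays, while NKX2-1, SFTPC and NAPSA were above it on all 9, at 5.40 to 6.14. In MKN-45, the gastric line, these last 3 lung markers were also above it on all 9 arrays, at 5.46 to 6.55. CDH1 was 11.71 to 12.44 in MKN-45.

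Homologous recombination rejoins a broken chromosome by copying the intact sister chromatid. MRE11, RAD50 and NBN sense the break, EXO1 lengthens the single-stranded end, and BRCA1, BARD1, PALB2 and BRCA2 prepare it for strand exchange, which RAD51C, XRCC2, XRCC3 and the RAD54 proteins assist. BLM with RMI1 and RMI2 then takes the joined molecules apart. In the Fanconi pathway, which removes crosslinks between DNA strands, a core complex with the ligase FANCL and the conjugating enzyme UBE2T marks the FANCD2-FANCI clamp with ubiquitin. ATM and ATR are the kinases that signal damage, acting through CHEK2 and CHEK1. Transcription of many of these genes is known to be highest in cells that replicate their DNA.

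Promoters are shown because most of the repair genes moved the same way after MET inhibition. RefSeq promoters on GRCh38.p14, from 250 bases before to 50 bases after the annotated start, were matched by symbol for 38 of the 42 genes, all but NBN, RMI2, FANCI and RAD54B. Where a gene had several starts the first listed was read. Both strands were searched for an E2F-type site (TTTCCCGC, TTTCGCGC, TTTGCCGC or TTTGGCGC), for the CHR-type site TTTGAA and for CCAAT. An E2F-type site lay in 8 of the 38 promoters, or 21.1%, against 3.33% of the 27305 promoters of all genes, 1 a gene. A CHR-type site lay in 6, or 15.8%, against 15.4%. CCAAT lay in 20, or 52.6%, against 35.7%. Of the 38 promoters, 13 belong to genes called at least 2-fold lower in EBC-1 and MKN-45 at both times, and 19 to other genes in the fit. An E2F-type site lay in 2 of the 13, or 15.4%, and in 3 of the 19, or 15.8%. For the CHR-type site the counts were 3 (23.1%) and 2 (10.5%), and for CCAAT 8 (61.5%) and 9 (47.4%). Sites of different kinds overlapped in 36 of all the promoters. These counts are descriptions of letters and carry no test. The 10 promoters printed belong to the 2 genes with the deepest mean fall in each of 4 roles among those with a promoter in the table, which passes over RMI2, followed by ATM and FANCF, which were added after their values were seen because they rose. Each sequence runs 5′ to 3′ on the strand of its gene, and capitals mark the letters of a matched site, with ATTGG standing for CCAAT on the opposite strand.
RAD51AP1 (chr12:4538640-4538939, plus strand): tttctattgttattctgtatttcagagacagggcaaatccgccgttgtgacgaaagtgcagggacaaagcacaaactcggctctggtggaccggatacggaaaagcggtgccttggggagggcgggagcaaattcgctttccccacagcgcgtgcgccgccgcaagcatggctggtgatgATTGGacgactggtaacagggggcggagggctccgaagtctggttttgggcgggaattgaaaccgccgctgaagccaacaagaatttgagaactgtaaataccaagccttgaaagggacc
BLM (chr15:90717096-90717395, plus strand): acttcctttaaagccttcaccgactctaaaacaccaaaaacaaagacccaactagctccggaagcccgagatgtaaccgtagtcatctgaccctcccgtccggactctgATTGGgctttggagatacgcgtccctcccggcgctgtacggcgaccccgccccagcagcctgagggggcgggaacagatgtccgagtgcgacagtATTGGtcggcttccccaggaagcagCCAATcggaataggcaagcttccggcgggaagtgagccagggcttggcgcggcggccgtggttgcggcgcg
EXO1 (chr1:241847954-241848253, plus strand): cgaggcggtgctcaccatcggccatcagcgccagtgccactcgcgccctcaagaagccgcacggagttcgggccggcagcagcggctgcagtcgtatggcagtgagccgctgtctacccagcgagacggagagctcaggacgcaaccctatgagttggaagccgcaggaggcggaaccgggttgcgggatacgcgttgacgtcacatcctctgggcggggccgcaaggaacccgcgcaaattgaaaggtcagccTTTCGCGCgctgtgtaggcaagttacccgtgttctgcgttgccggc
UBE2T (chr1:202341887-202342186, minus strand): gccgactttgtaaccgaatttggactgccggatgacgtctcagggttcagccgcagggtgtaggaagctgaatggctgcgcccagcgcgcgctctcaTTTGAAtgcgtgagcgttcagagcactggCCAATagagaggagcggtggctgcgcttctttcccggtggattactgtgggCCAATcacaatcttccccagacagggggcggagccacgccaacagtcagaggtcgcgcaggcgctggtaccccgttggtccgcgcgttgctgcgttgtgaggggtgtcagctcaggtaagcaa
FANCB (chrX:14873020-14873319, minus strand): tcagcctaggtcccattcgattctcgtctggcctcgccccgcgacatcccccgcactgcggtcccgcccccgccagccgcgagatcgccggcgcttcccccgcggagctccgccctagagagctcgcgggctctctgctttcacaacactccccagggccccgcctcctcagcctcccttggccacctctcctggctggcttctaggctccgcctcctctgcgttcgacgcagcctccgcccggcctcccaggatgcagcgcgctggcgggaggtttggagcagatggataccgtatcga
RAD54L (chr1:46247438-46247737, plus strand): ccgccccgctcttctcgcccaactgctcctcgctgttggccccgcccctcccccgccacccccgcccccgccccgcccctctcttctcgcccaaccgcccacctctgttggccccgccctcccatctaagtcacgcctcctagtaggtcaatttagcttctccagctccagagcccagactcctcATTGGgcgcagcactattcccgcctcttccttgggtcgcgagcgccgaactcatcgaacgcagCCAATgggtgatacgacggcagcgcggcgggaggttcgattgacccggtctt
EME1 (chr17:50372979-50373278, plus strand): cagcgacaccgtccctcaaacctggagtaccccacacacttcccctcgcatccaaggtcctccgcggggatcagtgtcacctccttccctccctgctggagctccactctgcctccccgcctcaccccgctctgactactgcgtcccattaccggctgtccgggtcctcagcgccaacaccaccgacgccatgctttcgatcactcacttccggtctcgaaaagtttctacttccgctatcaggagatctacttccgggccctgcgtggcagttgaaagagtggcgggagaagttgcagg
MRE11 (chr11:94493795-94494094, minus strand): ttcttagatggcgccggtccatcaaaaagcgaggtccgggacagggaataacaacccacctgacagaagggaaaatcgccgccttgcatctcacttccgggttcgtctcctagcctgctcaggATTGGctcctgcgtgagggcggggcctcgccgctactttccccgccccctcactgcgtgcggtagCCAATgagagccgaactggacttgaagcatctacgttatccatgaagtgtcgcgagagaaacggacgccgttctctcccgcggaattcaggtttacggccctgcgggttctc
ATM (chr11:108222817-108223116, plus strand): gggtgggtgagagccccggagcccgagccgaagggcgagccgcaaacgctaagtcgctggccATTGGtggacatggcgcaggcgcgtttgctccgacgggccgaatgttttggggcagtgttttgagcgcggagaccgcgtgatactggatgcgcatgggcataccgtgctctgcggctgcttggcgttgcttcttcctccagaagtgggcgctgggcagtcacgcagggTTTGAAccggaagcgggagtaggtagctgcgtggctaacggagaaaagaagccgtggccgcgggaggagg
FANCF (chr11:22625774-22626073, minus strand): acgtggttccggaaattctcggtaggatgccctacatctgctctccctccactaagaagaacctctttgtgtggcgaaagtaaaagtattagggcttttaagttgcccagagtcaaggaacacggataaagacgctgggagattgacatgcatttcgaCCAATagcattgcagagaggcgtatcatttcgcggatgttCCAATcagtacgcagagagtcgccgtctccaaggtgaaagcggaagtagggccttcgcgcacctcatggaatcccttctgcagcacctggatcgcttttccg
EXO1 was the only one of the 10 printed promoters with an E2F-type site. UBE2T and ATM held a CHR-type site, although UBE2T fell and ATM rose. CCAAT was present in 7 of the 10, and FANCB and EME1 held none of the searched letters.

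With SGX-523 most of the repair genes fell in both MET-dependent lines, and only a few rose. In EBC-1 at 24 h, 29 of the 36 were called lower and 2 higher, while 28.2% of all genes were called lower and 31.2% higher. At least 2-fold falls were called for 19 of the 36 genes, against 8.19% of all genes. The median change of the 36 was -1.03, against 0.04 over all genes. At 48 h in EBC-1, 30 were lower and 2 higher, against 29% and 32.8% of all genes, with 20 at least 2-fold lower against 8.94%. The median was then -1.19 for the repair genes and 0.07 for all genes.

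MKN-45 gave a similar picture. At 24 h, 27 of the 36 genes were called lower and 3 higher, against 27% and 33.4% of all genes, and 17 were at least 2-fold lower, against 7.11%. The median change was -0.87 for the repair genes and 0.05 for all genes. At 48 h, 29 were lower and 4 higher, against 26.3% and 36.4%, with 17 at least 2-fold lower against 7.1%. The median was -0.96 for the repair genes and 0.05 for all genes. The lines share no arrays, so their calls at one time can be set together. At 24 h 25 repair genes were lower in both lines, against 18.8% of all genes, and at 48 h 27 were, against 17.6%. Falls of at least 4-fold in both lines were called for 8 repair genes at 24 h, against 1.19% of all genes, and for 8 at 48 h, against 1.28%. At 24 h these were BRCA1, RAD51AP1, EXO1, BLM, UBE2T, FANCI, NEIL3 and POLQ. In each line, at least 1 other probe set of BRCA1 and the second of POLQ fell by less than 4-fold at 24 h.

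**Figure D1:**
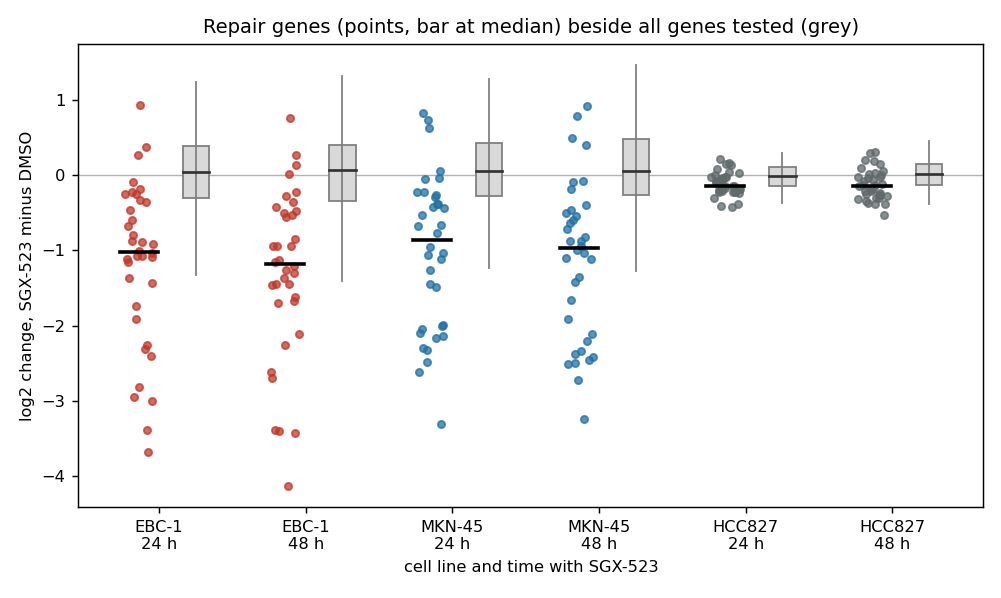
Log2 change, SGX-523 minus DMSO, of the 36 repair genes (points, black bar at their median) beside all 12325 genes tested (grey box from the 25th to the 75th percentile, line from the 5th to the 95th, dark bar at the median), by cell line and time. The repair gene medians lie between -1.19 and -0.87 in EBC-1 and MKN-45 and at -0.15 and -0.14 in HCC827.

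The counts cover the 36 genes that passed the limit on dim probe sets. With all 38 genes in a fit over 18132 genes, 29 were lower in EBC-1 at 24 h and 31 at 48 h, against 19.3% and 19.7% of all genes. In MKN-45 28 and 30 were lower, against 18.8% and 18.4%. BRIP1, the BRCA1-binding helicase also known as FANCJ, changed by -1.09 and -1.18 in EBC-1 at 24 h and 48 h and by -0.89 and -1.07 in MKN-45, all called in that fit. Its values stayed under the array medians, at most 4.95 on any array, so these sizes are uncertain. PMS2, a mismatch repair partner, was called in neither line and read between 2.70 and 3.86 on all arrays.

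Other marker lists moved with SGX-523 in the same lines, and their part in the changes of the repair genes was not tested. The summed linear signal of 7 fibroblast markers in EBC-1 was 3513 to 3819 at 24 h and 4252 to 4586 at 48 h, against 1112 to 1217 with DMSO. LUM alone of the 7 exceeded the array median on all 9 EBC-1 arrays, at 10.0 to 12.13, and COL1A1, COL1A2 and COL3A1 stayed at 5.16 or less in every line. The 4 squamous markers measured summed to 1805 to 1882 at 24 h and 1962 to 2568 at 48 h in MKN-45, against 309 to 369 with DMSO. SOX2, at 7.84 to 11.29 over the line, was the only 1 of the 4 above the array median on all 9 MKN-45 arrays. KRT5 read 4.50 to 5.68 there, KRT14 4.62 to 5.36 and DSG3 2.96 to 3.32, so the sum follows SOX2. The 5 epithelial markers summed to 21842 to 22092 and 20495 to 20761 in EBC-1 at 24 h and 48 h, against 31150 to 31481 with DMSO, and to 19966 to 20458 and 19939 to 20947 in MKN-45, against 28658 to 29990. The summed signal of the 8 gastric and intestinal markers measured moved opposite ways in EBC-1 and MKN-45. The sums were 4606 to 5329 and 5251 to 6015 in EBC-1, against 2710 to 2934 with DMSO. In MKN-45 they were 2078 to 2394 and 1500 to 1628, against 3721 to 4077. Only CDH17 (11.28 to 12.45) and LGALS4 (6.99 to 8.44) exceeded the array median on all 9 EBC-1 arrays, and the other 6 were under it on all 9. In MKN-45, 4 of the 8 were above it on all 9 arrays and 3 were under it. The 5 leukocyte markers measured summed to 181 to 219 and 160 to 207 in EBC-1, against 238 to 262 with DMSO. Among them CD14 and TYROBP were above the array median on all 9 EBC-1 arrays, and PTPRC stayed at 3.27 or less on every array.

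An RNA quality ratio of ACTB was higher with SGX-523. The log2 ratio of the 3′ to the 5′ probe set of ACTB averaged 3.76 ± 0.014 at 24 h and 3.89 ± 0.119 at 48 h in EBC-1, against 3.36 ± 0.141 with DMSO (SD, n = 3 each). It averaged 3.68 ± 0.02 and 4.16 ± 0.123 in MKN-45 at 24 h and 48 h, against 3.53 ± 0.084 with DMSO. In HCC827 it averaged 2.65 ± 0.658 and 2.33 ± 0.096, against 2.08 ± 0.071 with DMSO. The 24 h mean there includes the array that stands apart and is not given without it. Each of the 6 comparisons gave p = 0.1 by a two-sided exact permutation test, the smallest that 3 against 3 arrays allow. The same ratio for GAPDH differed less, by 0.02 and 0.09 in EBC-1, 0.06 and 0.21 in MKN-45 and 0.02 and -0.01 in HCC827. By the same permutation test p was 0.1 in EBC-1 and MKN-45 at 48 h and 0.2 to 0.7 in the others. The ACTB ratio was thus higher with SGX-523 in all 3 lines, and its part in the changes of the repair genes was not tested.

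**Figure D2:**
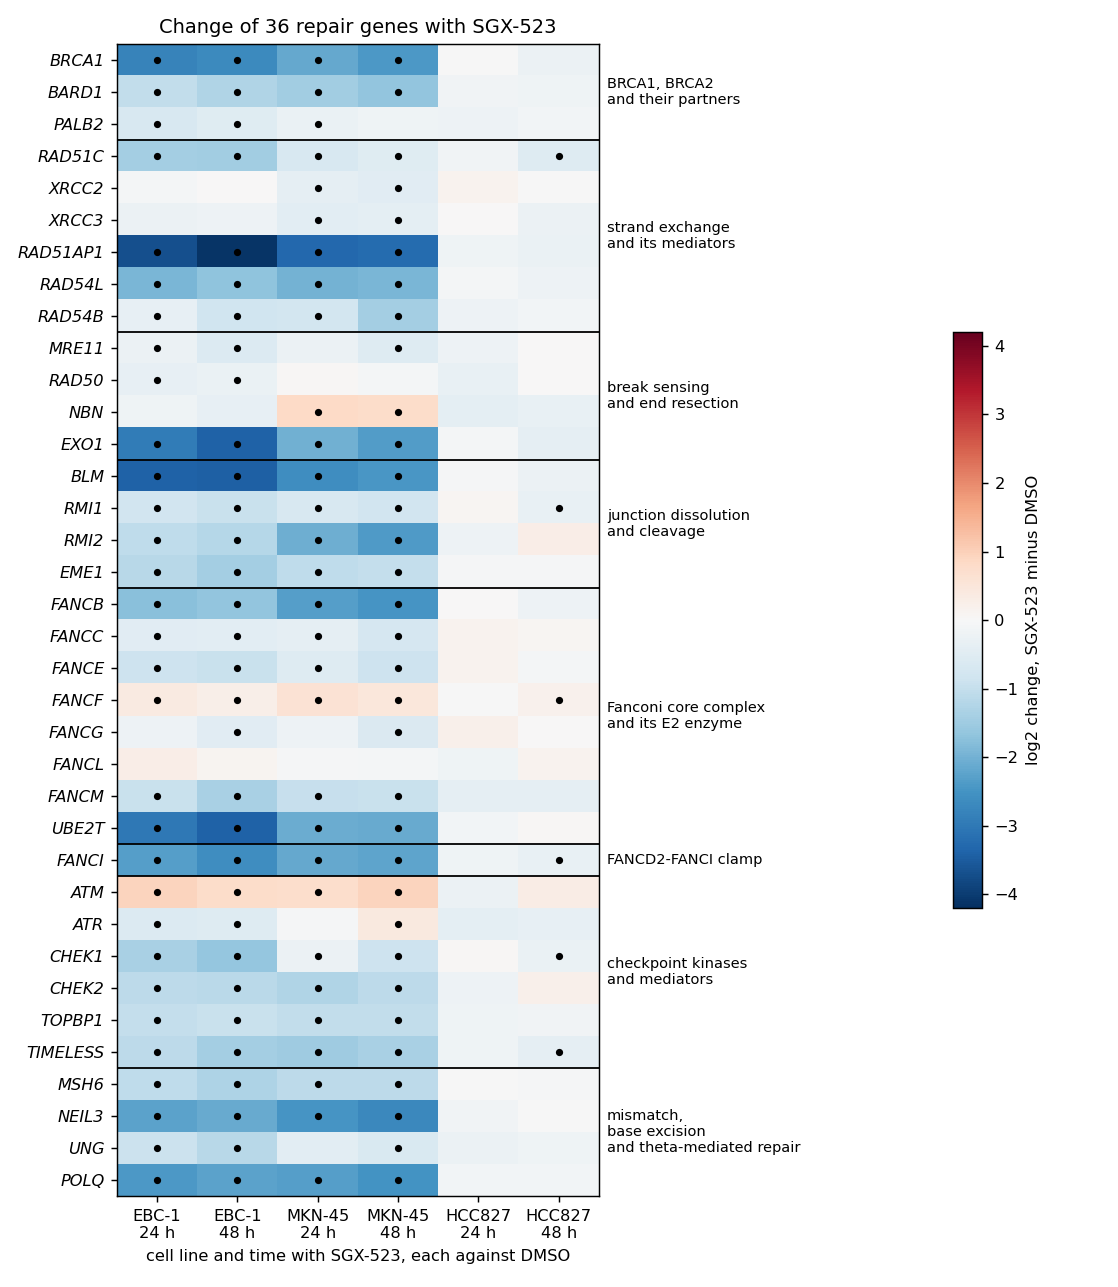
Log2 change, SGX-523 minus DMSO, of the 36 repair genes (rows, grouped by role) in each line and time (columns), with blue for lower and red for higher. Black dots mark changes called at a limma adjusted p under 0.05, and the reds in EBC-1 and MKN-45 that carry a dot are ATM, FANCF, NBN in MKN-45 and ATR in MKN-45 at 48 h.

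BRCA1, the scaffold that commits a break to recombination, fell deeply in both lines by its brightest probe set. Its values in EBC-1 were 5.36, 5.86 and 5.75 at 24 h and 5.88, 5.77 and 5.68 at 48 h, against 8.47, 8.44 and 8.48 with DMSO. The changes were -2.81 and -2.69 (SE 0.14, limma adjusted p = 1.03e-14 and 2.05e-14). In MKN-45 BRCA1 read 6.14, 5.42 and 5.68 at 24 h and 5.19, 5.50 and 5.75 at 48 h, against 7.98, 7.83 and 7.85 with DMSO. No treated array reached a DMSO array, and the changes were -2.14 and -2.41. All 4 probe sets of BRCA1 were called lower in both lines, but the size depended on the probe set. At 24 h and 48 h they ran from -2.93 to -1.58 and from -3.29 to -1.39 in EBC-1. In MKN-45 they ran from -2.37 to -0.84 and from -2.43 to -0.90. BARD1, the obligate ring-finger partner of BRCA1, fell less, by 1.04 and 1.26 in EBC-1 and by 1.45 and 1.66 in MKN-45. PALB2, the bridge between BRCA1 and BRCA2, changed by -0.68 and -0.51 in EBC-1 (both called) and by -0.29 (called) and -0.19 (adjusted p = 0.0771) in MKN-45. Without the first MKN-45 array at 24 h the adjusted p there was 0.0553. Without the HCC827 array that stands apart, which enters the pooled spread, PALB2 was called lower in MKN-45 at 48 h too (limma adjusted p = 0.00524).

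Among the genes of strand exchange, RAD51AP1, which helps strands pair, had the deepest fall of the 36 genes in every comparison of EBC-1 and MKN-45 with DMSO. It read 5.56, 5.65 and 5.77 in EBC-1 at 24 h and 4.99, 5.40 and 5.25 at 48 h, against 9.30, 9.28 and 9.44 with DMSO. In MKN-45 it read 6.89, 6.83 and 6.65 at 24 h and 6.77, 6.63 and 7.15 at 48 h, against 10.14, 10.04 and 10.09 with DMSO. The groups lay far apart on every array, with changes of -3.68 and -4.13 in EBC-1 (SE 0.15, adjusted p = 8.95e-17 and 7.19e-18) and of -3.30 and -3.24 in MKN-45. RAD54L, a motor that remodels the paired strands, averaged 4.99 ± 0.274 at 24 h and 5.20 ± 0.351 at 48 h in EBC-1, against 6.91 ± 0.042 with DMSO (SD, n = 3 each). Its changes were -1.91 and -1.70 in EBC-1 and -1.99 and -1.91 in MKN-45, but its 24 h means in both lines lay under the array medians, which makes those sizes uncertain. RAD54B, its paralog, changed by -0.33 and -0.85 in EBC-1 and by -0.77 and -1.42 in MKN-45, all called.

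RAD51C, XRCC2 and XRCC3 moved less than RAD51AP1. RAD51C read 8.23, 8.38 and 8.47 in EBC-1 at 24 h and 8.32, 8.35 and 8.34 at 48 h, against 9.78, 9.79 and 9.81 with DMSO, a change of -1.43 and then -1.46. In MKN-45 it fell by 0.68 and 0.51, both called. XRCC3 changed by -0.25 and -0.22 in EBC-1, where neither was called, and fell by 0.44 and 0.40 in MKN-45, the 48 h call being lost without the second DMSO array (limma adjusted p = 0.0543). For XRCC2 the answer depended on the probe set. Its brightest one changed by -0.09 and 0.02 in EBC-1, with adjusted p = 0.582 and 0.886, and by -0.38 and -0.46 in MKN-45, whereas a second one gave -1.64 and -1.02 in EBC-1 and -1.32 and -1.29 in MKN-45, all called.

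The break sensors MRE11, RAD50 and NBN changed less than EXO1, which is listed with them, and so did genes of other roles such as PALB2, XRCC2 and FANCG. EXO1, the exonuclease of long-range resection, fell with the other repair genes and read 4.15, 4.32 and 4.08 in EBC-1 at 24 h and 3.33, 4.25 and 3.63 at 48 h, against 7.11, 7.15 and 7.11 with DMSO. Its changes were -2.94 and -3.39 in EBC-1 and -2.01 and -2.34 in MKN-45, from treated means under the array medians, so the sizes are uncertain. MRE11, RAD50 and NBN form the complex that holds the broken ends. NBN, its regulatory subunit, read 9.96, 9.97 and 9.81 in MKN-45 at 24 h and 9.85, 9.87 and 9.87 at 48 h, against 9.08, 9.06 and 9.11 with DMSO. Every treated MKN-45 array thus lay above every DMSO array, and the rises of 0.83 and 0.78 were called (SE 0.18, adjusted p = 0.000233 and 0.000422). All 5 of its probe sets were called higher in MKN-45 at 24 h, and 4 at 48 h. In EBC-1 the brightest probe set changed by -0.18 and -0.36, with adjusted p = 0.419 and 0.0786. None of the 5 was called there at 24 h, and 2 were called lower at 48 h, over changes from -0.67 (not called) to -0.17. The HCC827 array that stands apart read 8.53 for NBN beside 9.69 and 9.80, and without it the SE was 0.048 and both EBC-1 changes were called lower (limma adjusted p = 0.0018 and 6.09e-08).

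RAD50 and MRE11, the ATPase and the nuclease of the complex, changed little by their brightest probe sets. RAD50 changed by -0.36 and -0.28 in EBC-1, both called, and by 0.06 and -0.08 in MKN-45, neither called. Its 2 other probe sets were called higher in MKN-45, by 0.49 and 0.77 at 24 h and by 0.51 and 0.69 at 48 h. MRE11 fell by 0.25 and 0.56 in EBC-1, changed by -0.23 (adjusted p = 0.0568) at 24 h in MKN-45 and fell by 0.54 at 48 h. The MKN-45 change at 24 h was called lower without the HCC827 array that stands apart (limma adjusted p = 0.000215). The 24 h call of MRE11 in EBC-1 was lost when any 1 of the 6 EBC-1 arrays was left out, and the 48 h call of RAD50 there when any of 4 was. Averaging all probe sets ended the EBC-1 calls of MRE11 at both times and of RAD50 at 24 h. In EBC-1 at 24 h, 2 other probe sets of MRE11 were called higher, by 0.28 and 0.49, opposite to the brightest, and the last one changed by -0.71 and was not called. At 48 h, 2 of the 4 probe sets of MRE11 were called lower in EBC-1, over changes from -0.88 to 0.32. In MKN-45, 1 of the 4 was called lower at 24 h (-0.52 to -0.18) and 3 at 48 h (-1.15 to 0.04). None was called higher in these 3 comparisons.

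All 4 measured genes of junction processing fell. BLM, the helicase that undoes crossed strands, read 4.02, 4.12 and 4.52 in EBC-1 at 24 h and 4.15, 4.28 and 4.10 at 48 h, against 7.68, 7.59 and 7.56 with DMSO. In MKN-45 it read 5.94, 5.94 and 5.68 at 24 h and 6.02, 6.03 and 5.95 at 48 h, against 8.44, 8.40 and 8.54 with DMSO. The groups did not overlap in either line, and the changes were -3.39 and -3.43 in EBC-1 (SE 0.10) and -2.61 and -2.46 in MKN-45. BLM means in treated EBC-1 lay under the array medians, unlike those in MKN-45. RMI1 and RMI2, which steady the dissolving complex, changed by -0.80 and -0.94 (RMI1) and by -1.07 and -1.21 (RMI2) in EBC-1. In MKN-45 RMI1 changed by -0.66 and -0.82 and RMI2 by -2.04 and -2.37. EME1, the partner of the MUS81 nuclease, fell by 1.16 and 1.44 in EBC-1 and by 1.06 and 0.99 in MKN-45.

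**Figure D3:**
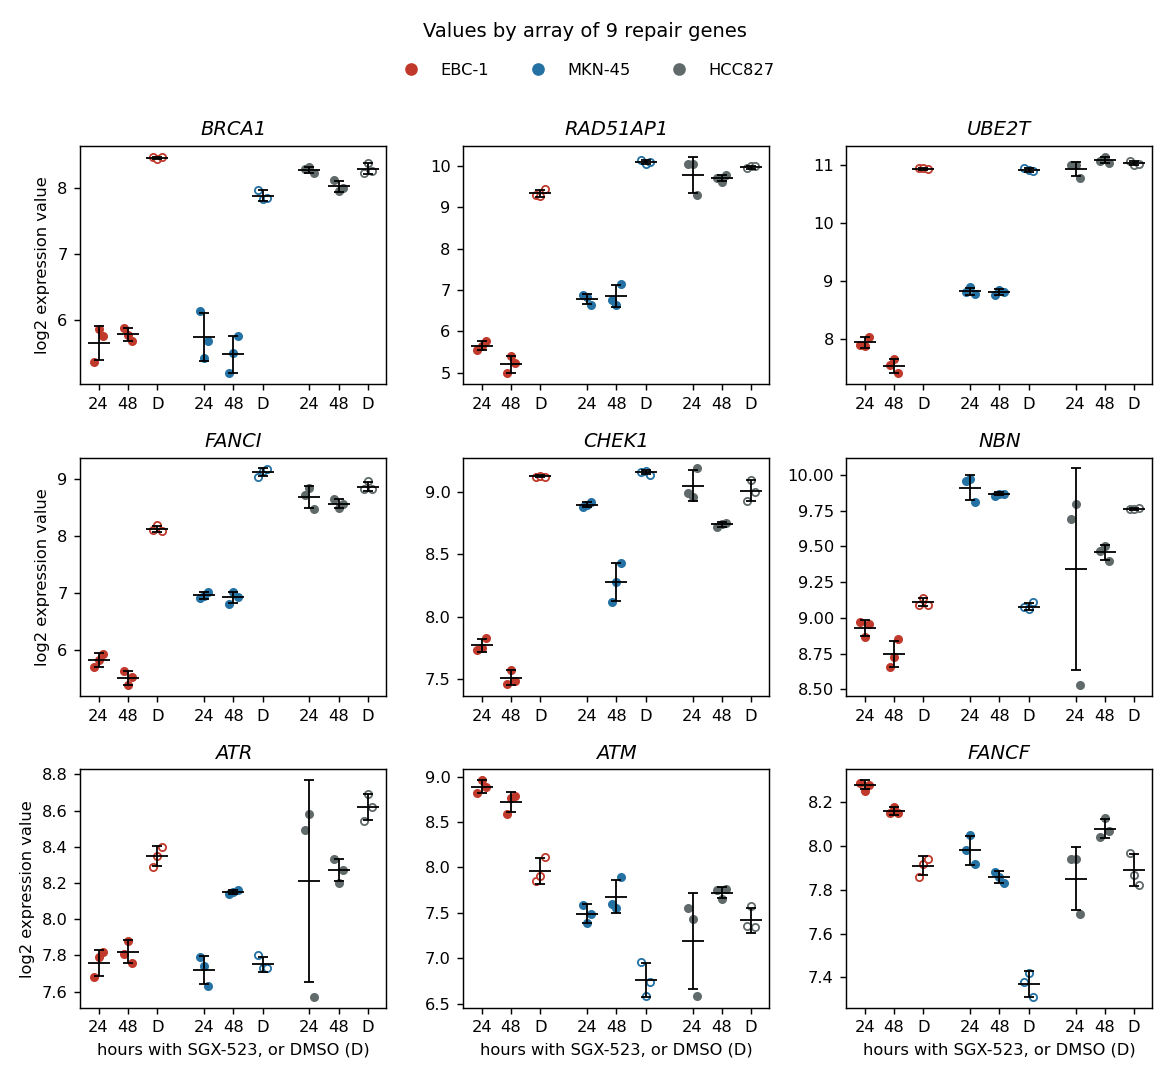
Deposited log2 values of 9 repair genes on each array, for SGX-523 at 24 h and 48 h (filled) and DMSO (open, D) in each line, with the mean and SD of the 3 arrays in black. BRCA1, RAD51AP1, UBE2T and FANCI are lower on every treated EBC-1 and MKN-45 array, and 1 HCC827 array at 24 h reads low for NBN, ATR and ATM.

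In the Fanconi core the members went different ways. UBE2T, the conjugating enzyme, read 7.90, 7.88 and 8.04 in EBC-1 at 24 h and 7.55, 7.65 and 7.41 at 48 h, against 10.94, 10.94 and 10.92 with DMSO. It averaged 8.82 ± 0.064 and 8.81 ± 0.049 in MKN-45 at 24 h and 48 h, against 10.91 ± 0.029 with DMSO (SD, n = 3 each). Its changes of -3.00 and -3.40 in EBC-1 and -2.09 and -2.11 in MKN-45 had an SE of 0.064, and no treated array came within 1 unit of a DMSO array. FANCI, the clamp subunit it helps to mark, changed by -2.31 and -2.62 in EBC-1 and by -2.16 and -2.20 in MKN-45. Its values in EBC-1 were 5.69, 5.83 and 5.93 at 24 h and 5.62, 5.38 and 5.53 at 48 h, against 8.11, 8.19 and 8.09 with DMSO, and MKN-45 showed no overlap either.

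FANCL, the ubiquitin ligase that works with UBE2T, was called in neither line with all arrays, with changes of 0.27 and 0.13 in EBC-1 and -0.05 and -0.09 in MKN-45 (SE 0.14). Without the HCC827 array that stands apart, which read 8.91 for FANCL beside 9.79 and 9.84, the EBC-1 changes were called higher (limma adjusted p = 5.94e-05 and 0.0394). FANCF, a flexible adaptor of the core complex, rose in both lines. It read 8.29, 8.25 and 8.28 in EBC-1 at 24 h and 8.15, 8.18 and 8.15 at 48 h, against 7.86, 7.92 and 7.94 with DMSO. In MKN-45 it read 7.98, 8.05 and 7.92 at 24 h and 7.88, 7.86 and 7.83 at 48 h, against 7.38, 7.42 and 7.31 with DMSO. The groups did not overlap, and the rises were 0.37 and 0.26 in EBC-1 and 0.62 and 0.49 in MKN-45 (SE 0.066). Of its 2 other probe sets, 1 was called higher in both lines, and 1 was called higher in MKN-45 and not in EBC-1 (0.07 and 0.01).

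Of the remaining core genes FANCB fell the furthest, with changes of -1.74 and -1.67 in EBC-1 and of -2.32 and -2.49 in MKN-45. FANCB, on the X chromosome, averaged 3.62 ± 0.135 and 3.70 ± 0.274 in EBC-1 at 24 h and 48 h, against 5.36 ± 0.232 with DMSO. In MKN-45 it averaged 3.66 ± 0.218 and 3.49 ± 0.089, against 5.98 ± 0.119 with DMSO (SD, n = 3 each), and its treated means lay under the array medians. FANCE, which links the core complex to the clamp, fell by 0.87 and 0.94 in EBC-1 and by 0.53 and 0.87 in MKN-45. FANCM, a translocase that brings the core complex to DNA, fell by 0.92 and 1.37 in EBC-1, where its treated means lay under the array medians, and by 0.96 and 0.94 in MKN-45. FANCC fell by 0.47 and 0.43 in EBC-1 and by 0.38 and 0.71 in MKN-45, where even its DMSO mean of 5.00 lay under the array median. FANCG changed by -0.22 at 24 h in each line, which was not called, and fell by 0.48 in EBC-1 and 0.60 in MKN-45 at 48 h.

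The checkpoint kinases split. ATM, the kinase that answers DNA breaks, read 8.82, 8.96 and 8.89 in EBC-1 at 24 h and 8.59, 8.77 and 8.79 at 48 h, against 7.85, 7.91 and 8.12 with DMSO. In MKN-45 it read 7.59, 7.39 and 7.49 at 24 h and 7.60, 7.55 and 7.89 at 48 h, against 6.96, 6.59 and 6.74 with DMSO. Every treated array exceeded every DMSO array of its line, with rises of 0.93 and 0.76 in EBC-1 and 0.73 and 0.92 in MKN-45 (SE 0.16, adjusted p from 1.83e-05 to 0.000358). ATM is nonetheless uncertain, since 2 of its other probe sets rose likewise in both lines and 1 did not. That probe set was called lower in EBC-1, by 0.98 and 1.09, and changed by 0.07 and 0.00 in MKN-45. The EBC-1 call at 48 h was lost when the probe sets of ATM were averaged.

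ATR, the kinase of stalled replication, went opposite ways in the lines. It read 7.68, 7.79 and 7.82 in EBC-1 at 24 h and 7.81, 7.88 and 7.76 at 48 h, against 8.29, 8.35 and 8.40 with DMSO. In MKN-45 it read 7.79, 7.74 and 7.63 at 24 h and 8.14, 8.15 and 8.16 at 48 h, against 7.80, 7.73 and 7.73 with DMSO. ATR thus fell by 0.59 and 0.53 in EBC-1, was not called in MKN-45 at 24 h (-0.04, adjusted p = 0.857), and was higher there at 48 h (0.40, adjusted p = 0.0203). That last call was lost without the second or the third DMSO array, at adjusted p = 0.0517 and 0.0509. CHEK1, the kinase that ATR activates, changed by -1.36 and -1.62 in EBC-1 and by -0.26 at 24 h and -0.88 at 48 h in MKN-45, all called. Its 6 probe sets ran from -1.72 to -1.25 and from -2.27 to -1.50 in EBC-1. In MKN-45 they ran from -0.69 to -0.26 and from -1.44 to -0.84. CHEK2, the target of ATM, fell by 1.09 and 1.13 in EBC-1 and by 1.26 and 1.11 in MKN-45. TOPBP1, an activator of ATR, fell by 1.01 and 0.94 in EBC-1 and by 1.03 at both times in MKN-45, and TIMELESS, which steadies the replication fork, fell by 1.11 and 1.44 in EBC-1 and by 1.49 and 1.35 in MKN-45.

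Genes of mismatch, base excision and theta-mediated repair, listed with the recombination genes, fell too. POLQ, the polymerase of theta-mediated end joining, averaged 5.25 ± 0.253 and 5.40 ± 0.224 in EBC-1 at 24 h and 48 h, against 7.65 ± 0.033 with DMSO. In MKN-45 it averaged 6.52 ± 0.123 and 6.31 ± 0.299, against 8.82 ± 0.045 with DMSO (SD, n = 3 each), with changes of -2.40 and -2.25 in EBC-1 and of -2.30 and -2.51 in MKN-45. The second probe set of POLQ gave -1.64 and -1.36 in EBC-1 and -1.83 and -2.13 in MKN-45, all called. NEIL3, a glycosylase that also unhooks crosslinks, changed by -2.25 and -2.11 in EBC-1 and by -2.48 and -2.72 in MKN-45. MSH6, a subunit of the mismatch sensor, fell by 1.07 and 1.30 in EBC-1 and by 1.11 and 1.10 in MKN-45. UNG, which cuts uracil out of DNA, fell by 0.89 and 1.16 in EBC-1, changed by -0.43 (adjusted p = 0.0594) in MKN-45 at 24 h and fell by 0.64 at 48 h. Without the HCC827 array that stands apart, the 24 h change of UNG in MKN-45 was called lower (limma adjusted p = 1.75e-06).

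**Figure D4:**
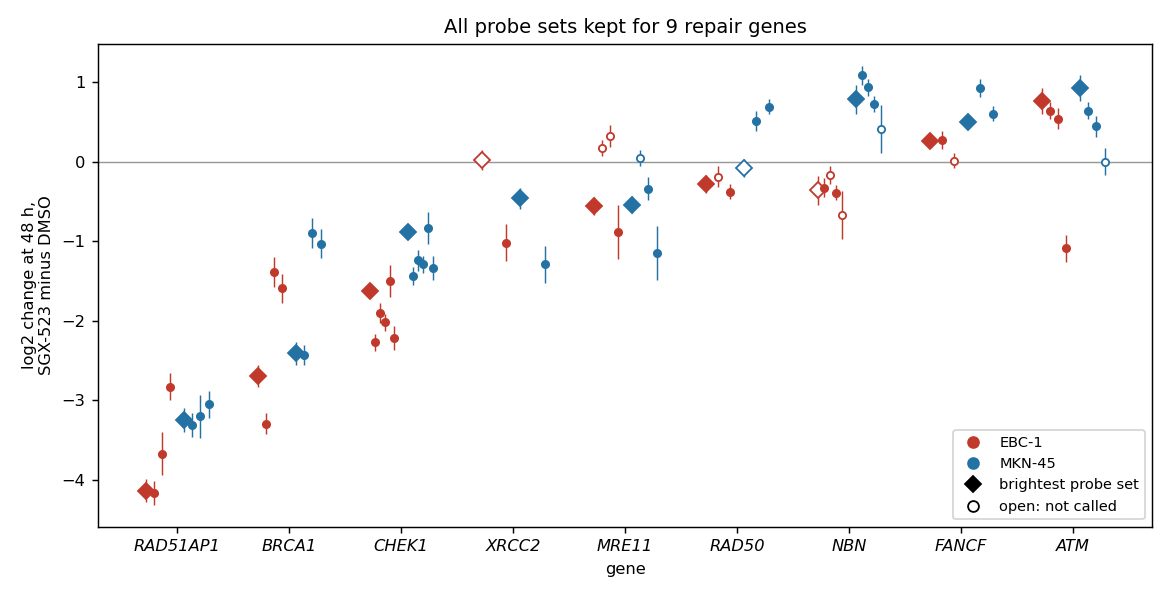
Log2 change at 48 h, SGX-523 minus DMSO, of each kept probe set of 9 repair genes in EBC-1 (red) and MKN-45 (blue), with 1 SE. Diamonds are the brightest probe sets, open symbols were not called, and ATM in EBC-1 has 3 probe sets above 0 and 1 at -1.09.

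More than 1 probe set was kept for 17 of the genes. All probe sets of a gene were called lower in EBC-1 for 10 of the 17 at both times, and in MKN-45 for 8 at 24 h and 11 at 48 h. They were called in opposite directions for ATM and MRE11 in EBC-1 at 24 h and for ATM in EBC-1 at 48 h, and for none in MKN-45.

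HCC827, whose MET is active but not needed, showed small changes. At 24 h none of the 36 genes was called by limma, against 0% of all genes called lower and 0.0325% called higher. An unadjusted limma p under 0.05 was found for 5 of the 36, all lower. Over the 12325 genes tested it was found for 2606, counted in both directions. The median change was -0.15 with all arrays, and -0.03 without the third replicate, again with no call. Leaving out the first or the second replicate instead, which keeps the array that stands apart among 2, gave 7 or 6 genes called lower, against 13.3% and 15% of all genes. RAD51AP1 read 10.04, 10.05 and 9.29 at 24 h in HCC827, against 9.94, 10.00 and 9.99 with DMSO, so only the third array was low. ATR read 8.49, 8.58 and 7.57 there, against 8.54, 8.69 and 8.62 with DMSO.

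At 48 h in HCC827, 5 genes were called lower and 1 higher, against 10.7% and 11.6% of all genes. RAD51C read 9.23, 9.26 and 9.30 with SGX-523 and 9.82, 9.87 and 9.69 with DMSO, the deepest of these falls at -0.53 (SE 0.082, adjusted p = 4.07e-05). TIMELESS fell by 0.38, RMI1 by 0.32, FANCI by 0.30 and CHEK1 by 0.27, and FANCF rose by 0.19 (adjusted p = 0.0369). BRCA1 read 8.12, 7.96 and 8.00, against 8.23, 8.39 and 8.26 with DMSO, which was not called (-0.26, adjusted p = 0.207). The 24 h array that stands apart enters the pooled spread, and without it 12 genes were called lower and 4 higher at 48 h, against 19.1% and 18.6% of all genes. NBN (-0.30), ATR (-0.35), FANCM (-0.39) and RAD51AP1 (-0.28) were then among the lower, and ATM (0.30), RMI2 (0.29) and FANCL (0.15) among the higher.

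The response of each MET-dependent line was tested against that of HCC827 as a difference of changes. EBC-1 minus HCC827 at 24 h was called below 0 for 23 genes and above 0 for 2, against 23.5% and 28.2% of all genes, with a median of -0.88. At 48 h it was below 0 for 28 and above 0 for none, against 24.2% and 24.5%, with a median of -0.98. An unadjusted limma p under 0.05 was found there for 28 repair genes, all below 0. Over the 12325 genes tested it was found for 6576, counted in both directions. MKN-45 minus HCC827 was below 0 for 25 genes and above 0 for 3 at 24 h, against 22.3% and 30.4%, with a median of -0.70. At 48 h it was below 0 for 24 and above 0 for 4, against 21.6% and 29.5%, with a median of -0.84. For RAD51AP1 the differences were -3.50 and -3.85 in EBC-1 and -3.12 and -2.96 in MKN-45. Above 0 in MKN-45 were NBN (1.25 and 1.08), ATM (0.96 and 0.62) and FANCF (0.65 and 0.29), and at 48 h also ATR (0.75). Without the HCC827 array that stands apart, the counts below 0 were 29 and 28 at 24 h, against 27.7% and 26.1% of all genes.

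The responses of the 2 MET-dependent lines were also set against each other. EBC-1 minus MKN-45 at 24 h was below 0 for 11 genes and above 0 for 5, against 23.7% and 18.3% of all genes. At 48 h it was below 0 for 13 and above 0 for 6, against 29.4% and 19.6%. These counts are near the shares over all genes, so the values below describe single genes. UBE2T differed by -0.91 at 24 h and -1.29 at 48 h (SE 0.091), which puts the deeper fall in EBC-1. CHEK1 differed by -1.10 and -0.74, RAD51C by -0.75 and -0.95, and NBN by -1.01 and -1.14. For CHEK1 the size at 24 h depended on the probe set, since its brightest had the smallest of 6 falls in MKN-45. RMI2 ran the other way, by 0.98 and 1.16, as did FANCB by 0.58 and 0.83, BARD1 by 0.41 and 0.40 and RAD54B by 0.44 and 0.57. Treated FANCB means lay under the array medians in both lines, at 3.62 and 3.70 in EBC-1 and 3.66 and 3.49 in MKN-45. With DMSO the means were 5.36 and 5.98, so the FANCB difference is uncertain. BLM differed by -0.79 and -0.98, but after 64 was added on the linear scale the differences were 0.12 and 0.04 and were not called, and its treated EBC-1 values lie under the array medians.

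**Figure D5:**
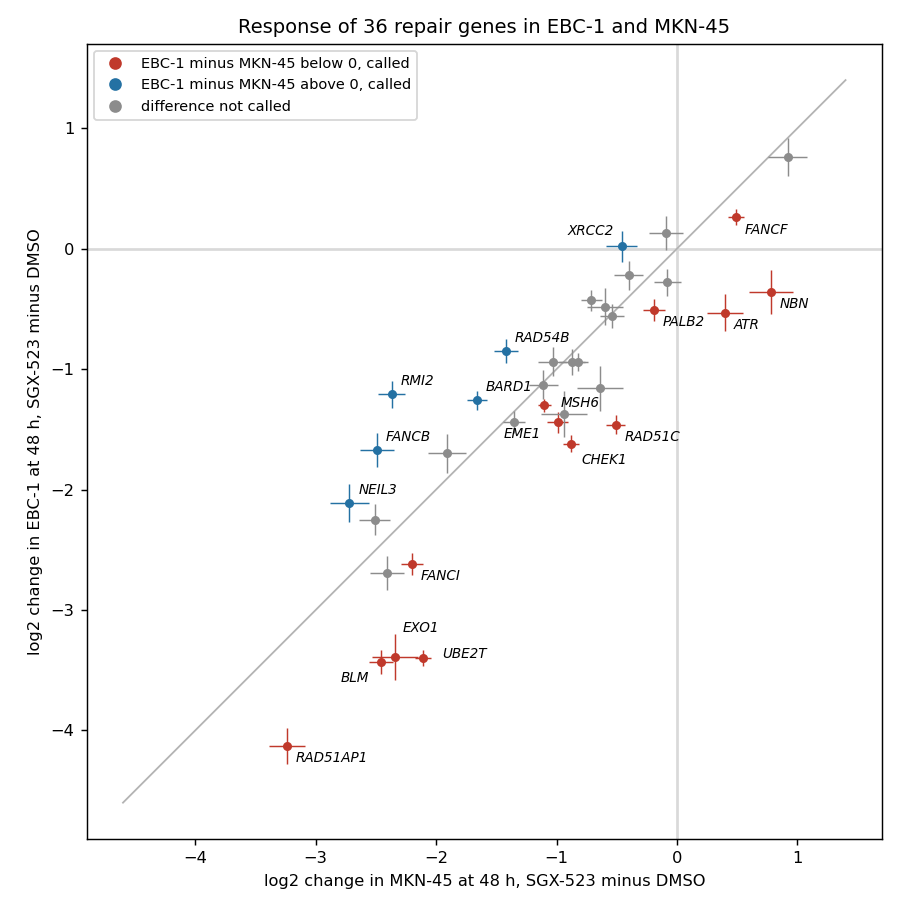
Log2 change at 48 h, SGX-523 minus DMSO, in EBC-1 (vertical) against MKN-45 (horizontal) for the 36 repair genes, with 1 SE each way and the line of equal change in grey. Colours mark genes whose difference between the lines was called, 13 below 0 and 6 above 0, and the named genes are those 19.

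In EBC-1 and MKN-45 fewer repair genes were called between 24 h and 48 h of SGX-523 than against DMSO. The share called lower was still above that of all genes in both lines. EBC-1 at 48 h against 24 h had 7 genes lower and none higher, against 6.04% and 4.98% of all genes. The median was -0.14, and 12 repair genes had an unadjusted limma p under 0.05, all lower. Over the 12325 genes tested 2754 had one, counted in both directions. The called genes were RAD54B (-0.52), UBE2T (-0.40), TIMELESS (-0.33), FANCI (-0.31), EME1 (-0.28), CHEK1 (-0.26) and MSH6 (-0.22). MKN-45 at 48 h against 24 h had 6 lower and 1 higher, against 9.36% and 14.9%, with a median of -0.07. These were RAD54B (-0.65), CHEK1 (-0.62), FANCE (-0.34), FANCC (-0.33), RMI2 (-0.33) and MRE11 (-0.30), and ATR at 0.43. CHEK1 read 8.12, 8.28 and 8.43 in MKN-45 at 48 h, against 8.88, 8.90 and 8.92 at 24 h, with no overlap. Without the HCC827 array that stands apart, the counts of lower genes were 13 in EBC-1 and 10 in MKN-45, against 13.4% and 14.9% of all genes.

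In HCC827, 48 h against 24 h gave 3 genes lower and 5 higher, against 10.8% and 15.8% of all genes. Without the third 24 h replicate the counts were 11 lower and 2 higher, against 14.8% and 14.1%, so the counts rested on that array. Over all genes 1329 were lower and 1953 higher with it, and 1818 and 1741 without it, and quantile normalization gave 1875 and 1781. RAD51C (-0.38), RMI1 (-0.40) and CHEK1 (-0.31) were lower with all arrays, and remained called without it at -0.47, -0.47 and -0.24.

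With DMSO alone, 14 of the 36 genes were lower and 11 higher in EBC-1 than in MKN-45, against 34% and 33.6% of all genes, so the counts are near those of genes at large. MRE11 read 8.20, 8.22 and 8.22 in EBC-1 and 10.00, 10.05 and 10.01 in MKN-45, a difference of -1.80 that its 3 other probe sets shared at -1.95, -1.97 and -2.28. TOPBP1 differed by -1.28, POLQ by -1.18 and FANCI by -0.99. RAD51C, FANCC and ATM were higher in EBC-1, by 1.53, 1.20 and 1.19.

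Other repair and cell-cycle lists were set beside the repair genes. For all these lists, 28.2% and 29% of all genes were lower in EBC-1 at 24 h and 48 h, and 31.2% and 32.8% higher. In MKN-45 27% and 26.3% of all genes were lower, and 33.4% and 36.4% higher. Of 59 other recombination and Fanconi genes, 33 were lower and 13 higher in EBC-1 at 24 h and 34 and 13 at 48 h, with medians of -0.48 and -0.42. In MKN-45 28 were lower and 18 higher at 24 h and 28 and 20 at 48 h, with medians of -0.17 and -0.01. MND1, an accessory factor of strand exchange in meiosis, changed by -3.19 and -4.17 in EBC-1 and by -3.49 and -4.80 in MKN-45. TIPIN, the partner of TIMELESS, fell by 2.64 and 2.78 in EBC-1 and by 1.73 and 1.80 in MKN-45, and CENPX, which binds FANCM, by 1.44 and 1.30 in EBC-1 and by 1.82 and 1.73 in MKN-45. NABP1, a single-strand binding protein, rose by 2.72 and 3.23 in EBC-1 and fell by 1.06 and 1.01 in MKN-45.

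End joining and nucleotide excision repair were mixed. Of 18 end joining genes, 9 were lower and 6 higher in EBC-1 at 24 h, 9 and 5 at 48 h, 7 and 6 in MKN-45 at 24 h and 8 and 3 at 48 h. PRKDC, the DNA-dependent kinase of end joining, fell by 1.49 and 1.69 in EBC-1 and by 1.80 and 1.46 in MKN-45. PARP2, RIF1 and XRCC6 were also lower in all these comparisons, with changes between -1.23 and -0.45. Of 14 nucleotide excision repair genes, 5 were lower and 6 higher in EBC-1 at 24 h, 4 and 4 at 48 h, 5 and 6 in MKN-45 at 24 h and 5 and 7 at 48 h. With so few genes these counts are near the shares of all genes, so the values below describe single genes. Changes of the 14 ran from -1.02 to 0.81 and from -1.35 to 0.99 in EBC-1. In MKN-45 they ran from -0.53 to 0.87 and from -0.49 to 1.06. XPC, the sensor of helix distortion, rose by 0.71 and 0.92 in EBC-1 and by 0.73 and 0.76 in MKN-45. UVSSA rose by 0.81 and 0.96 in EBC-1 and by 0.87 and 1.06 in MKN-45, GTF2H1 by 0.65 and 0.61 and by 0.44 and 0.55. CETN2 rose by 0.75 and 0.99 in EBC-1 and fell by 0.31 and 0.17 in MKN-45.

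Replication and mitosis genes had lower medians than the repair genes. Of 31 replication genes, 30 were lower in EBC-1 at 24 h and all 31 in EBC-1 at 48 h and in MKN-45 at both times, with medians of -2.07 and -2.29 in EBC-1 and -1.88 and -2.06 in MKN-45. RRM2, a ribonucleotide reductase subunit, changed by -6.00 and -6.58 in EBC-1 and by -4.12 and -5.02 in MKN-45. CDC6, GINS1 and TYMS changed by -4.67 to -2.30 over these 4 comparisons. All 24 mitosis genes were lower in each of them, with medians of -3.10 and -4.59 in EBC-1 and -3.10 and -3.77 in MKN-45. TOP2A changed by -3.15 and -5.47 in EBC-1 and by -3.05 and -4.63 in MKN-45, and ANLN, KIF20A and SPC25 changed by -6.05 to -2.91. At 48 h against 24 h, 21 of the 24 mitosis genes were lower in EBC-1 and 19 in MKN-45, beside 7 and 6 of the 36 repair genes. Over all genes 6.04% and 9.36% were lower. In HCC827 at 48 h, 14 of the 31 replication genes and 1 of the 24 mitosis genes were called lower, and 2 mitosis genes higher. Of all genes 10.7% were lower there and 11.6% higher. Whether the repair genes moved with the share of cycling cells was not tested.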

How the data were processed

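The 27 one-colour arrays were analysed from the authors' deposited log2 values, 1 per probe set, which ran from 1.87 to 14.38. MAS5 is named in the submitters' processing notes with no role, and the sources used here do not give how the arrays were brought to one scale. Groups were taken from the sample titles. Of 49395 probe sets, 44994 carry 1 gene symbol in the platform annotation, 1832 carry several and were not used for a gene, and the brightest single-symbol probe set by mean over the arrays stood for each of 18132 genes. A gene was tested where, on at least 3 arrays, that probe set was as bright as the array median. limma 3.58.1 in R 4.3.3 fitted 9 group means over all 27 arrays, with 18 residual degrees of freedom, an intensity trend, no pseudocount and no block. Benjamini-Hochberg adjustment ran over 12325 genes, with a threshold of 0.05. The number of arrays limits the precision.

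Same-numbered replicates did not pair the arrays: their deviations correlated between -0.197 and 0.133 over 18 pairs, of which 2 exceeded 0.1. The script was tested on simulated data with known changes. All 42 listed genes are accounted for, and from each other list the 4 genes with the best summed ranks of adjusted p over the comparisons of EBC-1 and MKN-45 with DMSO are named. Members and lists were chosen with earlier results of these data known. Alternatives covered normalization, centring, a pseudocount, both filters, the trend, the fit per line, the block, probe set averaging, array weights and leaving out each array. A fit of every probe set of a repair gene was added after seeing the data.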

Additional observations from a re-analysis of the deposited data

Results flagged for a closer look

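The response to SGX-523 differed between the MET-dependent lines and HCC827, by limma's test of the difference itself, for 25 repair genes in EBC-1 and 28 in MKN-45 at 24 h, and for 28 in EBC-1 and 28 in MKN-45 at 48 h. Each of these counts includes both directions. Below 0 were 23, 25, 28 and 24 of them in that order, against 23.5%, 22.3%, 24.2% and 21.6% of all genes, and above 0 were 2, 3, 0 and 4, against 28.2%, 30.4%, 24.5% and 29.5%.

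Differences between EBC-1 and MKN-45 in their log2 response passed the same test for 16 repair genes at 24 h, 11 below 0 and 5 above, against 23.7% and 18.3% of all genes, which is near the share of genes at large. Values below 0 mean that the log2 change was more negative, or less positive, in EBC-1 than in MKN-45. They were -1.10 for CHEK1, -1.01 for NBN, -0.93 for EXO1, -0.91 for UBE2T, -0.79 for BLM, -0.75 for RAD51C, -0.66 for BRCA1, -0.55 for ATR, -0.42 for RAD50, -0.39 for PALB2 and -0.25 for FANCF. Above 0 were RMI2 at 0.98, FANCB at 0.58, RAD54B at 0.44, BARD1 at 0.41 and TIMELESS at 0.38.

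At 48 h the test passed for 19 repair genes, 13 below 0 and 6 above, against 29.4% and 19.6% of all genes, again near it. Below 0 were UBE2T at -1.29, NBN at -1.14, EXO1 at -1.04, BLM at -0.98, RAD51C at -0.95, ATR at -0.93, RAD51AP1 at -0.89, CHEK1 at -0.74, EME1 at -0.45, FANCI at -0.42, PALB2 at -0.32, FANCF at -0.23 and MSH6 at -0.20. Above 0 were RMI2 at 1.16, FANCB at 0.83, NEIL3 at 0.61, RAD54B at 0.57, XRCC2 at 0.49 and BARD1 at 0.40. With 64 added on the linear scale, BLM lost direction and call at both times and FANCI at 48 h. Treated means lay under the array medians at both times for BLM in EBC-1 and for EXO1 and FANCB in both lines. So did that of NEIL3 in MKN-45 at 48 h, and the sizes of these differences are uncertain.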

How the results depend on the processing

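Of 1412 values for the repair genes against DMSO in EBC-1 and MKN-45 under 10 alternatives other than leaving out an array, 1372 kept their direction and side of the threshold, 7 lost a call, 29 gained one, 2 turned sign with a call and 2 without. Counts called lower ran from 25 to 30 and 25 to 31 in EBC-1 at 24 h and 48 h, and from 21 to 29 and 22 to 31 in MKN-45, with 29 genes tested under the stricter filter. The share of all genes called lower ran from 19.3% to 35.8% and 19.7% to 37% in EBC-1. In MKN-45 it ran from 18.8% to 34.1% and 18.4% to 32.3%. The replicate block changed none of the 144 calls, so 29 and 30 in EBC-1 and 27 and 29 in MKN-45 stayed lower with the block. Averaging all probe sets gave XRCC2 -0.50 and 1 gene called higher in EBC-1 at 48 h, RAD50 0.37 in MKN-45 at 48 h and 0.38 for MKN-45 minus HCC827. The pseudocount of 64 turned EBC-1 minus MKN-45 for BLM to 0.12 and 0.04, POLQ at 24 h to 0.36 and FANCI at 48 h to 0.09. It also gave 8 lower and 2 higher in HCC827 at 48 h, against 12.9% and 12.8% of all genes. In HCC827 at 48 h against 24 h it gave 7 lower. For EBC-1 minus HCC827 at 48 h it gave 1 above 0, as array weights did. The cause was not tested.

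In HCC827 at 48 h, averaging probe sets gave 3 lower and 0 higher, against 10.8% and 10.3% of all genes. Array weights gave 16 and 4, against 22.2% and 22.1%. Quantile normalization gave 2 higher, against 12.7%. No filter and the separate fit per line each gave 0 higher, against 7.35% and 5.44%. For 48 h against 24 h the counts that follow are given without the shares of all genes, so they describe only how far calls moved. The separate fit there gave 14 lower and 1 higher in EBC-1, 10 lower in MKN-45 and 1 higher in HCC827. Array weights gave 13 and 1, 13 and 2, and 10 and 2. In HCC827 quantile normalization gave 5 lower and averaging 0. NBN, ATR, TOPBP1 and UNG there turned to -0.28, -0.27, -0.21 and -0.37 with array weights and, leaving out arrays in turn, ran from -0.29 to 0.35, -0.27 to 0.24, -0.21 to 0.17 and -0.38 to 0.30, lowest without the third 24 h array and highest without the second.

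Leaving out arrays in turn, counts ran from 0 to 7 lower in HCC827 at 24 h, where 0% to 15% of all genes were lower. The other ranges in this paragraph are given without the shares of all genes. In HCC827 at 48 h counts ran from 4 to 12 lower and 0 to 4 higher. At 48 h against 24 h they ran from 3 to 13 lower and 0 to 1 higher in EBC-1 and 3 to 10 lower and 0 to 2 higher in MKN-45. In HCC827 they ran from 3 to 11 lower and 2 to 8 higher. Genes above 0 ran from 3 to 5 for MKN-45 minus HCC827 at 24 h and from 0 to 1 for EBC-1 minus HCC827 at 48 h. Treated means under the array median limit RAD54L, EXO1, BLM, FANCB, FANCM, FANCC and NEIL3.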

Other observations

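Some probe sets are annotated to a repair gene together with other symbols and entered no comparison. The one shared by CHEK2 and 3 unnamed loci read 5.92 ± 0.091 and 5.86 ± 0.067 in EBC-1 at 24 h and 48 h, against 7.07 ± 0.066 with DMSO (SD, n = 3 each). In MKN-45 it read 5.69 ± 0.043 and 5.81 ± 0.142, against 6.92 ± 0.051. The brighter of those shared by PMS2, a mismatch repair gene, and its pseudogene PMS2CL read 7.68 ± 0.082 and 7.72 ± 0.104 in EBC-1, against 7.97 ± 0.049, and 6.87 ± 0.031 and 6.91 ± 0.058 in MKN-45, against 7.08 ± 0.042. The one shared by RAD54B and FSBP read 5.73 ± 0.021 and 5.34 ± 0.099 in EBC-1, against 5.52 ± 0.194, and 5.99 ± 0.156 and 5.19 ± 0.333 in MKN-45, against 5.80 ± 0.201. None of these differences was tested.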
